A study of Mus musculus with 6 samples.

Results

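The 10 genes described here encode enzymes that make reactive oxygen and nitrogen species in the gut epithelium, together with inducible products of an inflamed epithelium. They were taken by symbol: the NADPH oxidase Nox1 with its partners Noxo1, Noxa1 and Cyba, the dual oxidase Duox2 with its maturation factor Duoxa2, the inducible nitric oxide synthase Nos2, the prostaglandin synthase Ptgs2, the iron-siderophore binding protein Lcn2 and the neutrophil-attracting chemokine Cxcl1. All 10 were found among the 52550 Ensembl gene identifiers listed per library. RNA was sequenced from epithelial cells of the colon of male Apc Min/+ mice, which carry a truncating germline mutation in 1 copy of the tumour suppressor Apc and form intestinal adenomas. Mice of 5 to 6 weeks were gavaged on alternate days with atorvastatin, a statin that blocks cholesterol synthesis, at 20 mg/kg (3 libraries), or with the vehicle 2% Tween 80 (control, 3 libraries). Both groups carried the Apc mutation, so all values below come from a mutant background. The labels do not say whether each library came from a separate animal, whether adenoma tissue was included, or how pure the isolate was, and p-values measure the spread between libraries only.

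NOX1 is the main NADPH oxidase of the colon epithelium. It sits in the apical membrane with the CYBA subunit and passes electrons from NADPH to oxygen, giving superoxide, and it is switched on when the organizer NOXO1 and the activator NOXA1 join it with the GTPase RAC1. DUOX2 releases hydrogen peroxide at the epithelial surface, and it leaves the endoplasmic reticulum only with DUOXA2. NOS2, PTGS2, LCN2 and CXCL1 are made at low levels in a quiet epithelium and are induced by microbial products, by interleukin 17 and by NF-kB signalling.

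Promoter sequences are shown for 5 members, picked by their values given below. Nox1 and Cyba were the 2 tested members with no overlap between groups. Duox2 and Duoxa2 are neighbours that varied together, and Cxcl1 is the abundant inflammatory product. Whether any motif bears on these values was not tested. They are RefSeq sequences of GRCm38.p6, running from 250 bases before to 50 bases after a transcript start, 5′ to 3′ on the strand of the gene. For Nox1 and Duox2 that start lies inside the GENCODE span given below. Nox1 is chrX:134111805-134112104 on the minus strand, Cyba chr8:122432891-122433190 on the minus strand, Duox2 chr2:122298178-122298477 on the minus strand, Duoxa2 chr2:122298650-122298949 on the plus strand and Cxcl1 chr5:90890995-90891294 on the plus strand. Capitals mark matches, on either strand, to 6 motifs: the 10-letter NF-kB consensus, AP-1 (TGANTCA), the STAT element GAS (TTCNNNGAA), C/EBP (TTGCNNAA), the TATA box (TATAAA) and the GC box (GGGCGG).
Nox1: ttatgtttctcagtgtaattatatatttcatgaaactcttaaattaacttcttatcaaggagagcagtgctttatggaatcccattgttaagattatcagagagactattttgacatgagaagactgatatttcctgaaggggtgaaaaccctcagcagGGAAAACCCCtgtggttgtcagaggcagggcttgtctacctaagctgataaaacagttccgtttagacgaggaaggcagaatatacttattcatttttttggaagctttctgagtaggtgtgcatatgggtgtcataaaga
Cyba: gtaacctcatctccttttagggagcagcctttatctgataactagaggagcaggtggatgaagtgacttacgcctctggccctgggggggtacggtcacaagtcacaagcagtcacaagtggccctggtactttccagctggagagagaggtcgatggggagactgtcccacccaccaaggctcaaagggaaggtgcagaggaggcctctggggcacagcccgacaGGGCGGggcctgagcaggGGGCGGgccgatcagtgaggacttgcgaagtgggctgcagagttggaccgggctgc
Duox2: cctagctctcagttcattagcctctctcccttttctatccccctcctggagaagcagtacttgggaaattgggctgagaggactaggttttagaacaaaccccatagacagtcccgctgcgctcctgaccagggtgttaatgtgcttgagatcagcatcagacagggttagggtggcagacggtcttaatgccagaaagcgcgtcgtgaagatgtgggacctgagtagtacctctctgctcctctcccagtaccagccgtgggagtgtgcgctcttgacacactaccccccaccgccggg
Duoxa2: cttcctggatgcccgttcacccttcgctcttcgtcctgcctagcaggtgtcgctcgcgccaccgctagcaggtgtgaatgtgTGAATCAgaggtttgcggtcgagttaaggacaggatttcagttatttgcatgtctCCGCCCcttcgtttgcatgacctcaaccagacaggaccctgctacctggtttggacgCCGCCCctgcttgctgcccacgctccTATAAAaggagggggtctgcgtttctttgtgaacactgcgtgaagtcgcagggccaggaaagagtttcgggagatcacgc
Cxcl1: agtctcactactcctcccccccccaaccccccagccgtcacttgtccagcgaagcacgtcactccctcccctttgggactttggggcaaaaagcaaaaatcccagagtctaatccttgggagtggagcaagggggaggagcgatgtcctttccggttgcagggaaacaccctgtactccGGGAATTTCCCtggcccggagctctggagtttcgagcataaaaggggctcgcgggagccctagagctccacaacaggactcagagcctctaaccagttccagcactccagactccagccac

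The Cxcl1 window held 2 overlapping NF-kB matches, together covering bases -71 to -61 from the start, and the Nox1 window held 1 at -91 to -82. An NF-kB match was present in 8.46% of the 32851 promoter windows of the table. The Cyba window held 2 GC boxes, at -24 to -19 and -6 to -1, a motif found in 35.7% of windows. The Duoxa2 window held an AP-1 match at -168 to -162 (7.81% of windows), a TATA box at -30 to -25 (13.6%) and 2 GC boxes, and the Duox2 window held none of the 6 motifs. Of the members not printed, Noxa1 held an NF-kB match, and Noxa1, Lcn2 and Ptgs2 each held a C/EBP match (10.8% of windows). Noxo1 held 3 GC boxes, and Lcn2 and Ptgs2 held 1 each. No window of a member held a GAS match (8.3% of windows). A match describes letters only and is not a binding site. The table held 9 of the 10 members, all but Nos2.

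Between 11456 and 11655 genes per library reached 1 FPKM (fragments per kilobase of gene, scaled to the mapped fragments of the library), and FPKM totals were 407857 to 430832. The depth of sequencing is unknown, since FPKM keeps no read totals. The cells carried the epithelial markers of the labelled cell type: Epcam, an epithelial adhesion protein gene, was at 536, 514 and 479 FPKM with atorvastatin and at 565, 565 and 534 FPKM in control. A gene was tested where 3 or more libraries reached 1 FPKM, which held for 11644 genes. Of these, 47 passed limma's test at a Benjamini-Hochberg adjusted p under 0.05 (0.404%), 18 higher (0.155%) and 29 lower (0.249%) with atorvastatin.

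Of the 10 members, 7 reached that filter and none of them passed limma's test. Nos2, Ptgs2 and Lcn2 stayed below 1 FPKM in all 6 libraries and were not tested. At an unadjusted p under 0.05 there were 2 members, Nox1 and Cyba, where 12% of all tested genes lay under that value (7.75% higher, 4.27% lower). The same 2 had no overlap between groups, Nox1 higher and Cyba lower with atorvastatin, where 18.1% of tested genes had none (12% higher, 6.05% lower). The median log2 fold change of the 7 was -0.02, against 0.02 over all tested genes. None of the 7 passed in any of the 18 other settings in which it was fitted, which was all 18 for 6 of them and 17 for Duoxa2, left out by a filter of 5 FPKM.

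**Figure D1:**
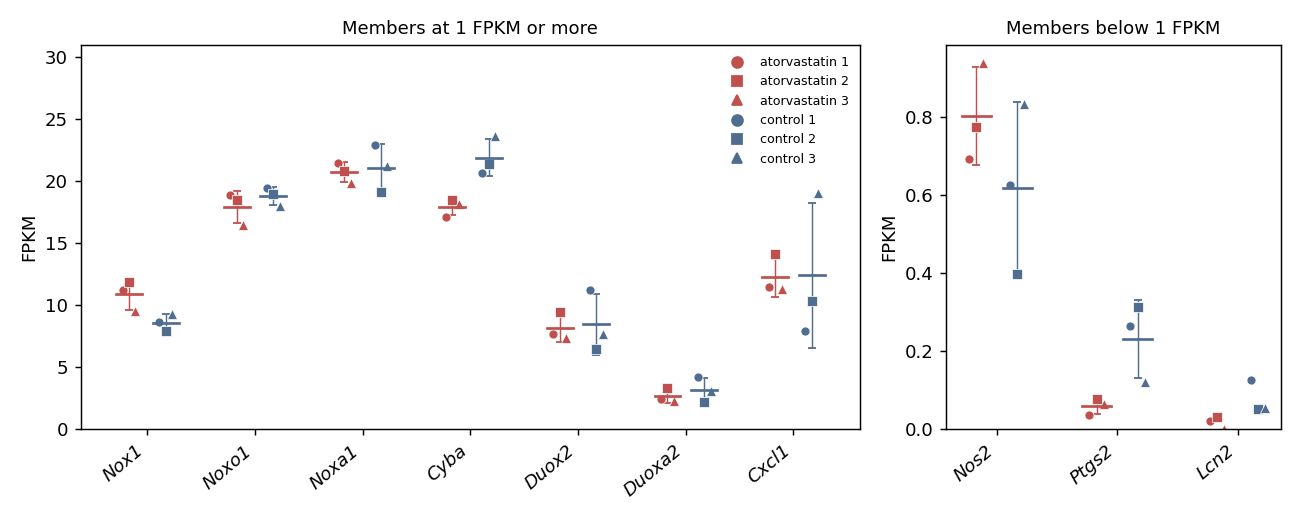
FPKM of the 10 members in each library, atorvastatin in red and control in blue, with 1 symbol per replicate number. Horizontal lines are means and bars are SDs of 3 libraries, except for Lcn2, where a library is listed at 0 and points alone are drawn. Nox1 lay higher and Cyba lower in every atorvastatin library, and the 3 genes on the right stayed under 1 FPKM.

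Among the NADPH oxidase subunits, the catalytic subunit had higher values and its membrane partner lower values with atorvastatin, neither past the adjusted threshold. Nox1 (ENSMUSG00000031257, chromosome X, 134086421 to 134221956, minus strand, GRCm38) was at 11.2, 11.9 and 9.50 FPKM with atorvastatin and at 8.62, 7.87 and 9.25 FPKM in control. The lowest atorvastatin library lay just above the highest control library. The log2 fold change on the log2(FPKM + 1) scale was 0.31 ± 0.09 (SE), with a 95% interval of 0.09 to 0.52 (limma adjusted p = 0.248), and the ratio of the means was 1.27. It was positive in all 18 other settings, at 0.24 to 0.39 (limma adjusted p 0.2 to 0.541). The annotated span of Nox1 overlaps those of the genes Cstf2, Xkrx and Arl13a, and its separate transcripts were not examined.

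Cyba (ENSMUSG00000006519, chromosome 8, 122424776 to 122432930, minus strand), which encodes the membrane subunit shared by several NADPH oxidases, was at 17.1, 18.5 and 18.2 FPKM with atorvastatin and at 20.7, 21.4 and 23.6 FPKM in control. All atorvastatin libraries lay below all control libraries. The log2 fold change was -0.27 ± 0.06, with a 95% interval of -0.42 to -0.12 (limma adjusted p = 0.155), and it stayed negative in all 18 other settings, at -0.31 to -0.22 (limma adjusted p 0.124 to 0.394). Cyba is also transcribed in phagocytes, whose marker genes are given below.

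The cytosolic partners showed no such separation. Noxo1, the organizer (ENSMUSG00000019320, chromosome 17, 24696234 to 24700529, plus strand), was at 18.9, 18.4 and 16.4 FPKM with atorvastatin and at 19.4, 19.0 and 18.0 FPKM in control, which gave -0.07 on the log2 scale with a 95% interval of -0.22 to 0.09 (limma adjusted p = 0.764). Noxa1, the activator (ENSMUSG00000036805, chromosome 2, 25085667 to 25095149, minus strand), was at 21.5, 20.8 and 19.8 FPKM with atorvastatin and at 22.9, 19.1 and 21.2 FPKM in control, which gave -0.02 with an interval of -0.19 to 0.15 (limma adjusted p = 0.943). For both, the groups overlapped. Without atorvastatin replicate 3 or control replicate 1, the Noxa1 difference was positive (0.01 and 0.04).

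The strand setting of the counting is not given in the sources used here, and 4 members share exon positions with a gene on the opposite strand, so reads of each pair cannot be told apart with certainty. They are Nox1 with Cstf2 (6.34 ± 0.92 FPKM with atorvastatin and 5.95 ± 0.82 in control; SD, n = 3 each), Noxo1 with Tbl3 (5.72 ± 0.37 and 5.57 ± 0.37), Noxa1 with Entpd8 (19.2 ± 1.9 and 21.4 ± 2.0) and Duoxa2 with Duoxa1, which stayed under 1 FPKM. None of Cstf2, Tbl3 and Entpd8 passed limma's test (adjusted p = 0.855, 0.902 and 0.585). The groups overlapped in all 3 of these partner genes.

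**Figure D2:**
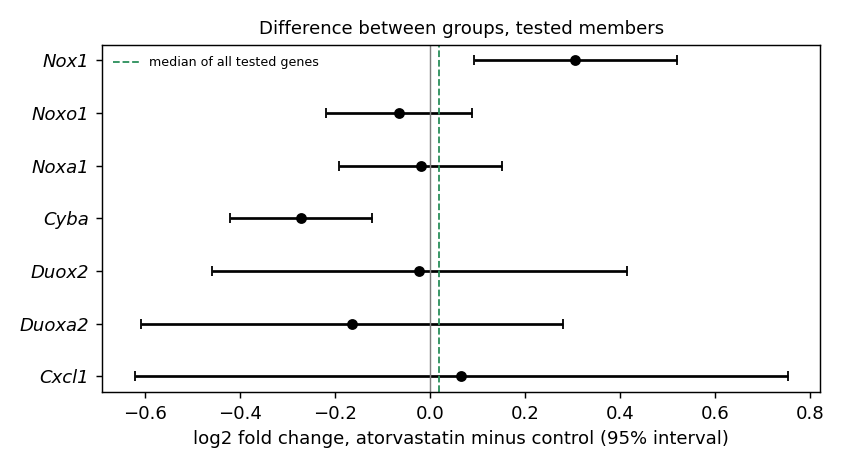
Log2 fold change on the log2(FPKM + 1) scale of the 7 tested members, atorvastatin minus control, with 95% intervals from limma. The dashed line is the median of all tested genes (0.02). The intervals of Nox1 (0.09 to 0.52) and Cyba (-0.42 to -0.12) leave out 0, but neither gene passed after adjustment over all tested genes.

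A ratio of 2 genes within a library does not depend on how the library was scaled. Nox1 amounted to 0.594, 0.642 and 0.578 times the FPKM of Noxo1 with atorvastatin and to 0.443, 0.415 and 0.515 times in control. The groups did not overlap, with a mean log2 difference of 0.41. The exact permutation test (two-sided) gave p = 0.1, the smallest value that 3 against 3 libraries allow. The difference was positive with each library left out (0.34 to 0.49). Noxa1 and Cyba were compared in the same way after their values had been seen, with no test. The ratio of Nox1 to Noxa1 was 0.522, 0.568 and 0.479 with atorvastatin, against 0.376, 0.412 and 0.436 in control, and that of Nox1 to Cyba was 0.654, 0.641 and 0.523, against 0.417, 0.368 and 0.392. In each of the 3 ratios every atorvastatin library lay above every control library. All 3 share Nox1 as numerator, so they are not separate results. For Cyba the separation follows from that of the 2 genes themselves. The summed FPKM of the 4 subunits was 63.9 to 69.6 with atorvastatin and 67.3 to 72.0 in control.

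**Figure D3:**
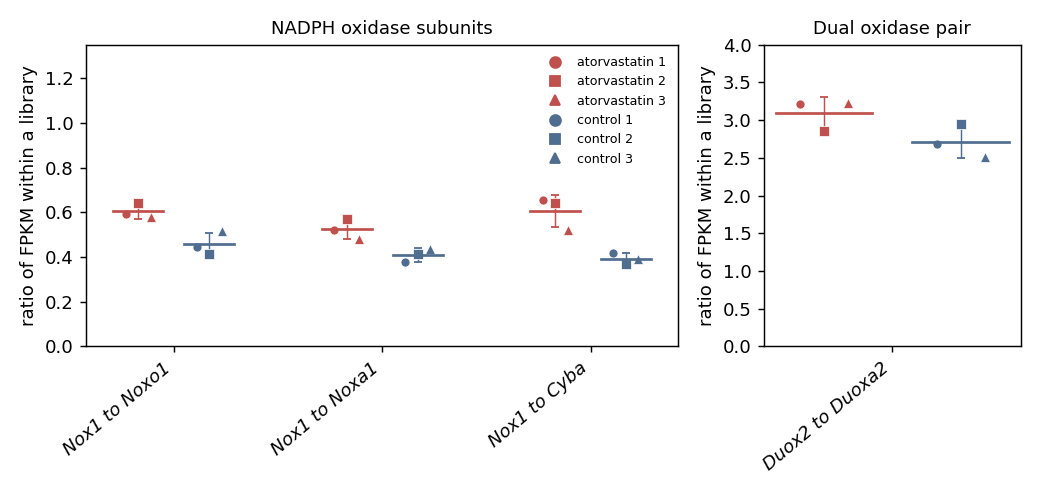
Ratio of FPKM within each library for Nox1 against 3 partner subunits (left) and Duox2 against Duoxa2 (right), atorvastatin in red and control in blue, with means and SDs of 3 libraries. The 3 Nox1 ratios do not overlap between groups, and the Duox2 ratio does. The 3 share the same Nox1 values and are not separate results.

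Duox2 and Duoxa2 lie head to head on chromosome 2, with GENCODE starts 451 bases apart. The printed Duox2 window is set on another start, and most of it lies within the GENCODE span of Duox2. The bases just before the GENCODE start were not all searched for motifs. Duox2 (ENSMUSG00000068452, 122279247 to 122298449, minus strand) was at 7.70, 9.41 and 7.33 FPKM with atorvastatin and at 11.2, 6.49 and 7.66 FPKM in control. Duoxa2 (ENSMUSG00000027225, 122298900 to 122302885, plus strand) was at 2.40, 3.29 and 2.27 FPKM with atorvastatin and at 4.18, 2.20 and 3.05 FPKM in control. For both genes control replicate 1 was the highest library and control replicate 2 the lowest, so that the control group spanned the whole atorvastatin group.

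The log2 fold changes were -0.02 for Duox2, with a 95% interval of -0.46 to 0.41 (limma adjusted p = 0.975), and -0.16 for Duoxa2, with an interval of -0.61 to 0.28 (limma adjusted p = 0.8). These intervals are wide enough to hold changes in either direction. The signs rested on single libraries. For Duox2 the log2 fold change was 0.18 without control replicate 1, 0.04 without atorvastatin replicate 3 and 0.01 without atorvastatin replicate 1, and for Duoxa2 it was 0.01 without control replicate 1. The FPKM ratio of Duox2 to Duoxa2 was 3.21, 2.86 and 3.23 with atorvastatin and 2.68, 2.95 and 2.52 in control (exact permutation test, two-sided, p = 0.2), a narrower range than either gene showed alone. Other NADPH oxidase catalytic genes were little detected: Nox3 and Nox4 were listed at 0 in all 6 libraries, and Duox1 stayed at or below 0.131 FPKM.

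By the root mean square difference between centred log2(FPKM + 1) profiles over the 6 libraries, the gene most like Duox2 was Pla2g4f, a cytosolic phospholipase gene, at a difference of 0.06, where the SD of Duox2 over the libraries was 0.25. Pla2g4f was at 5.09, 5.96 and 4.95 FPKM with atorvastatin and at 7.08, 3.97 and 5.44 FPKM in control. Slc36a1, an amino acid transporter gene, and the predicted gene Gm10146 came next, at 0.09 each. Gm10146 was highest in control replicate 1, as Duox2 was, but Slc36a1 was highest in atorvastatin replicate 2, at 16.3 FPKM, against 16.2 FPKM in control replicate 1. Singled out after their values were seen, the acute-phase gene Saa1 was at 33.3, 45.9 and 36.1 FPKM with atorvastatin and at 84.4, 49.1 and 48.2 FPKM in control, and Ly6g was at 16.3, 23.9 and 18.2 FPKM with atorvastatin and at 39.9, 19.1 and 20.1 FPKM in control. In both, control replicate 1 was the highest library, as it was for Duox2. Control replicate 2, the lowest library for Duox2, lay above every atorvastatin library for Saa1. Saa1 has near-identical relatives, so its own level is uncertain.

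**Figure D4:**
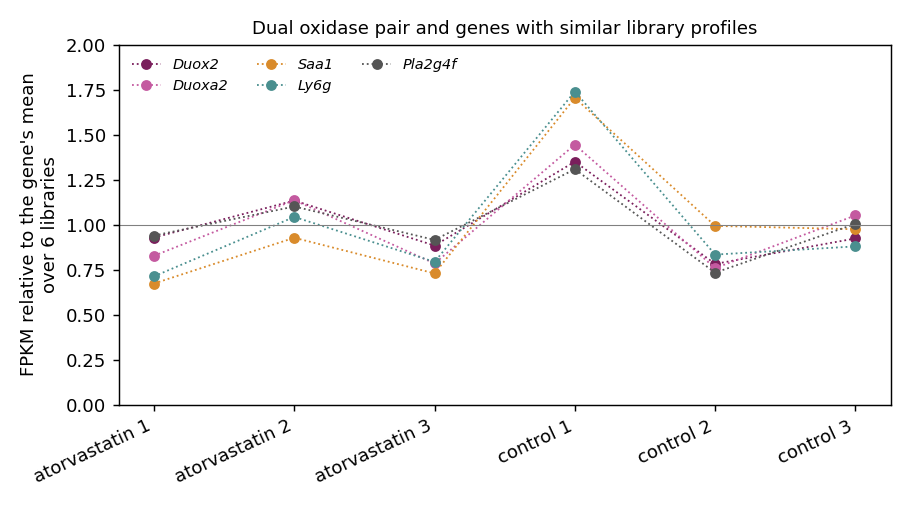
FPKM of Duox2, Duoxa2, Pla2g4f, Saa1 and Ly6g in each library relative to the mean of the gene over the 6 libraries. All 5 genes were highest in control replicate 1, and atorvastatin replicate 2 was the highest atorvastatin library for each. Saa1 and Ly6g were singled out after their values were seen. Slc36a1, which was highest in atorvastatin replicate 2, is not drawn.

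Of the inducible products, Cxcl1 was the only one above 1 FPKM. Cxcl1 (ENSMUSG00000029380, chromosome 5, 90891241 to 90893115, plus strand) was at 11.4, 14.1 and 11.3 FPKM with atorvastatin and at 7.92, 10.3 and 19.0 FPKM in control. The control libraries spread on both sides of the atorvastatin libraries. The log2 fold change was 0.06, with a 95% interval of -0.62 to 0.75 (limma adjusted p = 0.954), and leaving out single libraries moved it between -0.19 and 0.40.

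Nos2 (ENSMUSG00000020826, chromosome 11, 78920787 to 78960254, plus strand) was at 0.692, 0.774 and 0.939 FPKM with atorvastatin and at 0.626, 0.397 and 0.834 FPKM in control, with overlapping groups. Fitted with no filter, its log2 fold change was 0.16 ± 0.12 (limma adjusted p = 0.778 over 28981 genes). Ptgs2 (ENSMUSG00000032487, chromosome 1, 150100031 to 150108227, plus strand) was at 0.0355, 0.0764 and 0.0635 FPKM with atorvastatin and at 0.263, 0.313 and 0.12 FPKM in control. Every atorvastatin library lay below every control library, at levels that rest on few reads. With no filter the log2 fold change of Ptgs2 was -0.22 ± 0.07 (limma adjusted p = 0.523), and with a pseudocount of 0.1, which shrinks low values less, it was -1.03 ± 0.28 (limma adjusted p = 0.426).

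Lcn2 (ENSMUSG00000026822, chromosome 2, 32384633 to 32388252, minus strand), a common marker of gut inflammation, was listed at 0.0206, 0.0302 and 0 FPKM with atorvastatin and at 0.125, 0.0523 and 0.0544 FPKM in control. The groups did not overlap, but all 6 values were near 0. With no filter its log2 fold change was -0.08 ± 0.03 (limma adjusted p = 0.596). Among genes with a mean of 0.01 to 1 FPKM, 5.75% had every atorvastatin library below every control library and 6.27% above, and over all genes above 0 in any library 5.13% lay below. Of the 10 members, 3 lay below in this way (Cyba, Ptgs2 and Lcn2).

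Many leukocyte markers had lower values with atorvastatin, although the summed levels of several lists overlapped and no marker gene that reached the filter passed limma's test. Of 14 macrophage and dendritic cell markers, 6 lay lower in every atorvastatin library and 1 higher. Over all genes above 0 in any library, 5.13% lay lower in this way. The list summed to 16.6 to 23.7 FPKM with atorvastatin and 17.6 to 26.8 FPKM in control, which overlapped. Cd14 made up most of each sum, and without it the list summed to 3.94 to 5.00 FPKM with atorvastatin and 5.16 to 10.8 FPKM in control. The defining markers were near 0: Csf1r, the receptor of macrophage growth factor, was at 0.0568, 0.0697 and 0.0911 FPKM with atorvastatin and at 0.324, 0.403 and 0.117 FPKM in control, and Adgre1 stayed at or below 0.194 FPKM. Control replicate 3 was the control library nearest to the atorvastatin group for Csf1r and Ptgs2, and the farthest from it for Cyba. It was also nearest for some markers of other cell types, such as Gzmb (T and NK cells), Igkc (B and plasma cells) and Mcpt1 (mast cells). These single-library comparisons were made after the values were seen, and their cause was not tested.

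Of 18 T and NK cell markers, 8 lay lower in every atorvastatin library and none higher. The 11 tested had a median log2 fold change of -0.48, and summed levels were 19.4 to 25.8 FPKM with atorvastatin and 25.8 to 47.8 FPKM in control, which overlapped slightly. For mast cells 4 of 8, for B and plasma cells 5 of 9 and for neutrophils 2 of 12 markers lay lower in this way. The share was 5.13% over all genes above 0 in any library. Neutrophil markers summed to 16.8 to 24.4 FPKM with atorvastatin and 20.6 to 41.8 FPKM in control, nearly all of it Ly6g. Those other than Ly6g summed to 0.464 to 0.535 FPKM with atorvastatin and 0.811 to 1.97 FPKM in control. Ncf1 and Ncf4, whose values are given below, made up most of each of these sums. S100a8 was at or below 0.107 FPKM and Csf3r at or below 0.0666 FPKM. In such bulk samples fewer cells of a type and less RNA per cell cannot be told apart. The part of these cells in the values of Cyba and Ptgs2 was not tested.

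Of the phagocyte oxidase subunits, Cybb, Ncf1 and Ncf4 had low values that did not overlap between groups. They are not separate results. Cybb is among the macrophage and dendritic cell markers counted above as lower, and Ncf1 and Ncf4 are the neutrophil markers counted so. Cybb, its catalytic subunit, was at 0.0865, 0.0835 and 0.0604 FPKM with atorvastatin and at 0.281, 0.293 and 0.114 FPKM in control. Ncf1, its organizer, was at 0.281, 0.211 and 0.411 FPKM with atorvastatin and at 0.835, 0.719 and 0.453 FPKM in control, and Ncf4 was at 0.144, 0.174 and 0.108 FPKM, against 0.382, 0.375 and 0.342 FPKM. None of the 3 reached the filter, and over all genes above 0 in any library 5.13% lay lower in this way. Of the 12 listed genes of this group outside the members, 5 were tested and none passed limma's test. Only the leukocyte GTPase gene Rac2 lay under an unadjusted p of 0.05, as did 12% of all tested genes. Rac2 was at 0.665, 0.422 and 1.06 FPKM with atorvastatin and at 1.49, 1.58 and 0.887 FPKM in control (limma adjusted p = 0.377). Rac1, the widely expressed GTPase that works with NOX1, was at 66.7 ± 1.7 FPKM with atorvastatin and 64.5 ± 2.7 FPKM in control (limma adjusted p = 0.79).

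In the nitric oxide and arginine group, 1 of 12 tested genes of 17 listed passed limma's test, as did 0.404% of all tested genes. Qdpr, the dihydropteridine reductase that regenerates tetrahydrobiopterin, the cofactor of nitric oxide synthases and of aromatic amino acid hydroxylases, fell to 15.2, 19.7 and 19.7 FPKM with atorvastatin, against 33.0, 32.4 and 31.5 FPKM in control. The groups were far apart: the difference was -0.80 ± 0.10 (SE) on the log2 scale (limma adjusted p = 0.029), and the ratio of means 0.564. In 7 of 18 other settings Qdpr did not pass limma's test. With a control library left out, its adjusted p was 0.139 (replicate 1), 0.0941 (replicate 2) and 0.0579 (replicate 3), and it was 0.067 without atorvastatin replicate 3. With no filter it was 0.203, with no filter and a pseudocount of 0.1 it was 0.14, and with the replicate number as a block it was 0.144. The log2 fold change stayed between -0.86 and -0.68 in all 18.

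Other genes of this group did not pass. Gchfr, which encodes the feedback regulator of the first enzyme of the cofactor's synthesis, was at 0.516, 1.00 and 0.814 FPKM with atorvastatin and at 1.41, 1.06 and 1.26 FPKM in control (limma adjusted p = 0.325). Ddah1, which degrades the methylarginine inhibitors of nitric oxide synthases, was at 11.8 ± 0.2 FPKM with atorvastatin and 13.2 ± 0.2 FPKM in control (limma adjusted p = 0.27). Ass1, which resupplies arginine from citrulline, was at 10.4 ± 1.0 FPKM with atorvastatin and 8.73 ± 0.43 FPKM in control (limma adjusted p = 0.319). The groups did not overlap in any of these 3 genes, which were named for their small p-values. Of the 12 tested genes of the list, 2 lay higher and 3 lower with no overlap. Over all tested genes, 18.1% had no overlap. Nos1 and Nos3 stayed at or below 0.0128 FPKM.

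In the prostaglandin group, none of 12 tested genes of 23 listed passed limma's test. Of the 12, 1 gene lay under an unadjusted p of 0.05, as did 12% of all tested genes. That gene was Abcc4, a transporter that exports prostaglandins, at 2.18, 2.81 and 2.45 FPKM with atorvastatin and at 2.11, 1.91 and 1.95 FPKM in control (limma adjusted p = 0.359). Hpgd, which inactivates prostaglandins and is given as the gene of the list with the highest level, was at 103 ± 5.6 FPKM with atorvastatin and 106 ± 12.9 FPKM in control. Ptgs1, the constitutive counterpart of Ptgs2, and the inducible synthase gene Ptges stayed below 1 FPKM. The synthase genes Ptges2 and Ptges3 reached the filter, and in both the groups overlapped.

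In the group of interleukin 17 and NF-kB responsive products, none of 19 tested genes of 28 listed passed limma's test. Of the 19, 4 lay under an unadjusted p of 0.05, as did 12% of all tested genes. Nfkbia, the inhibitor that NF-kB induces, was at 184, 159 and 168 FPKM with atorvastatin and at 148, 153 and 146 FPKM in control, a difference of 0.19 on the log2 scale (limma adjusted p = 0.326). Ccl20, a chemokine for lymphocytes, was at 5.97 ± 0.56 FPKM with atorvastatin and 4.94 ± 0.51 FPKM in control (limma adjusted p = 0.373). Saa1 and Nfkbie, another NF-kB inhibitor, had log2 fold changes of -0.61 and -0.21 (limma adjusted p = 0.379 and 0.398). The 4 genes were thus 2 with higher and 2 with lower values. Of all 28 listed genes, tested or not, 1 lay higher and 4 lower in every atorvastatin library. Over all genes above 0 in any library, 5.13% lay lower in this way. Among genes linked to Lcn2 and iron, none of 5 tested passed, and the iron exporter gene Slc40a1 was at 13.4 ± 0.9 FPKM with atorvastatin and 15.8 ± 1.3 FPKM in control (limma adjusted p = 0.322). The only tested heme peroxidase gene, Lpo, was at 10.9 ± 2.2 FPKM with atorvastatin and 10.1 ± 2.4 FPKM in control.

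**Figure D5:**
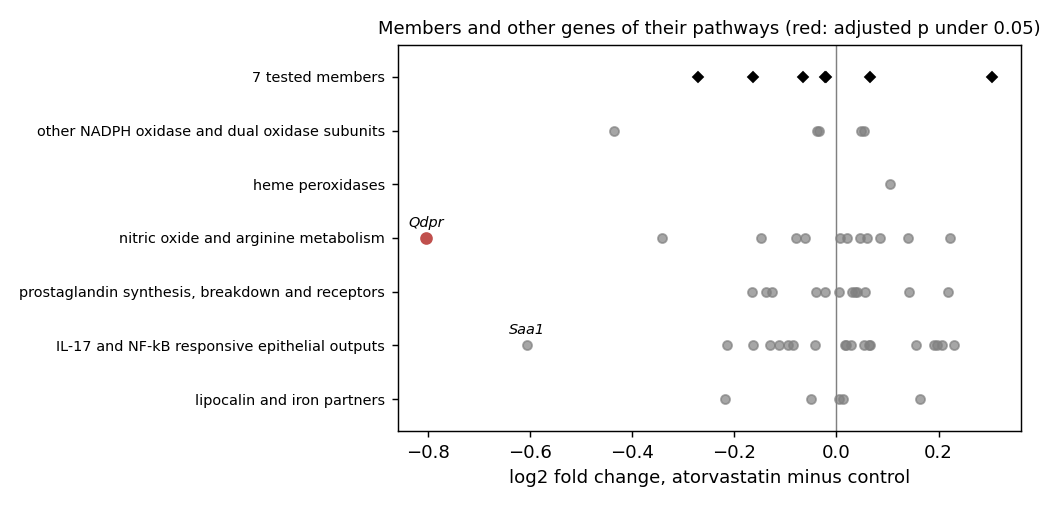
Log2 fold change on the log2(FPKM + 1) scale, atorvastatin minus control, of the 7 tested members (diamonds) and of the tested genes of 6 lists of related genes (circles). Qdpr at -0.80 is the single gene with an adjusted p under 0.05, and the members lie between -0.27 and 0.31.

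Per length, the members kept nearly the same order of levels in both groups. With atorvastatin Noxa1 was highest at 20.7 FPKM, followed by Cyba and Noxo1 at 17.9 FPKM each, which overlapped, then Cxcl1 at 12.3 and Nox1 at 10.9 FPKM, which overlapped too. Duox2 at 8.15, Duoxa2 at 2.65, Nos2 at 0.802, Ptgs2 and Lcn2 came next, each separated from its neighbour. In control the order began with Cyba at 21.9 FPKM and Noxa1 at 21.1 FPKM, and from Cyba down to Duox2 at 8.45 FPKM each gene overlapped the next. Nox1 lay above Duox2 in all 3 atorvastatin libraries and in 2 of 3 control libraries.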

How the data were processed

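RNA from colon epithelial cells was measured by sequencing in 3 atorvastatin and 3 control libraries. The authors deposited 1 value per gene and library, taken here as FPKM: the file headers name no unit, and the values are not whole and have unequal totals. The submitters' processing notes name Bowtie without a version, FastQC 0.11.2 and mm10. How FPKM were computed, with which annotation and strand setting, is not given in the sources used here.

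Gene symbols came from a table that named 99.72% of identifiers, and coordinates from GENCODE M21 on GRCm38, which mm10 denotes. Genes reaching 1 FPKM in 3 or more of 6 libraries were fitted as log2(FPKM + 1) with limma 3.58.1 (trended, robust empirical Bayes, two-sided) in R 4.3.3, a step tested on simulated data, with Benjamini-Hochberg adjustment over all 11644 genes. Fold changes on this scale understate changes of low genes. Ratios were compared with an exact permutation test (scipy 1.17.1).

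The members, lists and tests were chosen with earlier results of these data known. All members are named. From each list, up to 4 genes with the smallest p, and any that passed, could be named. Markers that define a cell type, and the most abundant gene of a list, could also be named. Other genes named, such as neighbours and subunits below the filter, were chosen after their values were seen. Likeness was ranked among genes averaging 5 FPKM or more whose SD was at least 0.5 times the member's. The depth per library is unknown, so precision is known only from the spread between libraries. Alternatives covered the pseudocount, the filter, scaling, the test's settings, the replicate block and each library left out. The numbers 1 to 3 shared by the groups do not pair the libraries by any label.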

Additional observations from a re-analysis of the deposited data

How the results depend on the processing

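No member passed limma's test under any of the 18 alternatives that fitted it (17 for Duoxa2, and only those with no filter for Nos2, Lcn2 and Ptgs2), and 119 of 128 alternative values of single members kept the reported direction. The alternatives for Qdpr and other genes outside the members, and those with no filter and a pseudocount of 0.1 together, were chosen after seeing the data. The exceptions came with a library left out, where log2 fold changes ran from -0.18 to 0.18 for Duox2, from -0.337 to 0.0118 for Duoxa2, from -0.0849 to 0.0391 for Noxa1 and from -0.19 to 0.40 for Cxcl1. The number of all genes passing, 47, was 2 with no filter, 4 with no filter and a pseudocount of 0.1, and 2 to 67 with a library left out (2 without control replicate 1, 13 without atorvastatin replicate 1, 17 without atorvastatin replicate 3, 30 without control replicate 2). The cause was not tested. With the replicate number as a block, 0 members and 1 gene passed. Deviations of same-numbered libraries from their group means correlated at -0.14, -0.11 and 0.01 across genes. Those of differently numbered libraries correlated at -0.05 to 0.16. These correlations do not settle whether same-numbered libraries were handled together, and no label says so. Both ratios kept their direction throughout. With the block, the log2 difference of 0.41 for Nox1 to Noxo1 had an exact p of 0.25, the smallest sign flips allow, and that of 0.19 for Duox2 to Duoxa2 an exact p of 0.5. The median log2 fold change of all genes was 0.02 as deposited and -0.01 to 0.01 after rescaling. Values under 1 FPKM are limited by unknown, low read numbers.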

Other observations

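On the log2(FPKM + 1) scale, genes next to 2 members had larger log2 fold changes than any tested member. Neither of these neighbours passed limma's test. Mvd, an enzyme gene of the cholesterol pathway, lies 671 bases from Cyba on the same strand. Mvd was at 24.1, 23.0 and 22.4 FPKM with atorvastatin and at 18.2, 14.6 and 18.6 FPKM in control, above control in every atorvastatin library, where Cyba was below. The log2 fold change of Mvd was 0.42 ± 0.09 (limma adjusted p = 0.137), and it did not pass in any alternative. Lgals9, a galectin gene, lies 2720 bases from Nos2 on the opposite strand. Lgals9 was at 38.4, 58.9 and 41.6 FPKM with atorvastatin and at 85.5, 70.2 and 75.9 FPKM in control, which is -0.75 ± 0.16 on the log2 scale (limma adjusted p = 0.137). Without atorvastatin replicate 2 limma's adjusted p of Lgals9 was 0.0235, the lowest of its alternatives, and the highest was 0.378 with no filter. Both neighbours were singled out after their values were seen.

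The genes whose library profiles were most like that of Nox1 were the predicted gene Gm4617, the sterol-regulated gene Tmem97 and the nuclear lamina gene Lmnb1, with root mean square differences of 0.03, 0.05 and 0.05 on the log2 scale over 6 libraries, where the SD of Nox1 over the 6 libraries was 0.20. Tmem97 was at 32.3, 36.7 and 29.2 FPKM with atorvastatin and at 26.3, 22.5 and 28.0 FPKM in control. For Nos2 the nearest profiles of 3779 candidate genes were those of Mrpl16, Alas1 and Sdr42e1. For Ptgs2 those of 4540 candidates were Marveld3, Irf2bpl and Rab4a. Both members stayed below 1 FPKM, where the log2(FPKM + 1) scale shrinks differences. The ratio of means of Ptgs2 was 0.252, but its log2 fold change on that scale was -0.22. Likeness to Nos2 or Ptgs2 therefore does not mean a change of the same size in FPKM.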
